A study of Papio with 24 samples.

Results

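The carriers that bring amino acids, glucose and other hexoses, monocarboxylates and fatty acids into cells were read on Illumina bead arrays in adipose-derived stem cells of fetal baboons. Members were the genes whose annotated symbol starts with SLC1A, SLC2A, SLC3A, SLC6A, SLC7A, SLC16A, SLC27A, SLC36A, SLC38A or SLC43A and a number, each read by its brightest single-symbol probe. Of 18852 genes with such a probe, 93 were members, and 49 of these could be tested because their probe was detected (detection p under 0.05) on at least 4 of the 24 arrays. Among the 49 were 43 carriers and 6 symbols that share the prefix without being a carrier gene: SLC2A4RG, SLC6A10P, SLC7A5P2, SLC7A6OS, SLC38A2-AS1 and SLC38A4-AS1.

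Cells came from 8 fetuses at 165 days of gestation, where term is 184 days. The restricted group held 4 fetuses (1 male, restricted_9085, and 3 females, restricted_2820, restricted_9075 and restricted_9073) whose mothers ate a diet reduced by 30% throughout pregnancy. The control group held 4 fetuses (1 male, control_9017, and 3 females, control_9087, control_8011 and control_8009) whose mothers ate freely. Each fetus gave 1 array of omental fat cells, 1 of subcutaneous abdominal fat cells and 1 of subcutaneous femoral fat cells, so each depot had 4 restricted and 4 control arrays. All groups share the same handling: collagenase released the cells, which were cultured to confluence in medium with 10% serum, cryopreserved, revived and cultured to confluence once more, and the RNA of 3 wells was pooled for an array. Levels therefore describe cultured cells in serum and medium rather than fat tissue, and 1 array is 1 culture of 1 fetus and depot. The probes were designed for human transcripts, and how well they match baboon sequence was not tested.

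Carriers of the SLC families set which nutrients a cell can use. SLC2A proteins let glucose and related sugars cross the membrane down their gradient, and SLC2A1 is the carrier of basal glucose uptake in many dividing and fetal cells. Amino acids are gathered by sodium-driven carriers such as SLC38A2 and SLC1A5 and exchanged for large neutral amino acids by SLC7A5, which works as a pair with the heavy chain SLC3A2, and the amino acids that enter feed the mTORC1 growth pathway. SLC16A proteins move lactate, creatine and related small acids, and SLC27A proteins couple fatty acid uptake to activation with coenzyme A.

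Levels below are normalized log2 intensities and differences are on the same log2 scale. Each comparison was fitted with limma over the 16933 detected probes of the array, and a member was called at an adjusted p under 0.05 (Benjamini-Hochberg over all of them). The arrays detected between 13102 and 14994 probes and between 35 and 44 members, and their mean raw intensity lay between 148 and 211. Levels of different probes cannot be set against each other. In cells measured in bulk, fewer cells of a type and less RNA per cell cannot be told apart. The abdominal array of fetus restricted_9073 was the 1 abdominal array on which CD36, a fatty acid receptor high in the omental cells, was detected (5.39). Results that rest on it are given without it where it matters.

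Among the 44 members that were not tested, 34 were detected on no array, 8 on 1 array and 2, SLC7A14 and SLC16A13, on 2 arrays. The undetected members included SLC2A4, the insulin-responsive glucose carrier of fat and muscle, the cationic amino acid carrier SLC7A1, the cystine carrier SLC7A11, the taurine carrier SLC6A6 and the fatty acid carrier SLC27A4. No statement about their levels can be made from these probes. SLC2A6, SLC2A9 and SLC6A3 were just inside the limit with 4 arrays each, and no member was detected on exactly 3. By contrast, 27 members were detected on all 24 arrays. The 4 genes that mark this group of carriers, SLC2A1, SLC7A5, SLC3A2 and SLC38A2, were among them.

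The called differences among the carriers lay between depots. Omental cells had a lower SLC43A3 signal than either kind of subcutaneous cell with its brightest probe, but not with a dimmer probe of the gene. They had less RNA of the small neutral amino acid carrier SLC1A4 than either kind and less of the glucose carrier SLC2A1 than femoral cells. All of the members called between depots in the fits without a fetus block were lower in omental cells. Against abdominal cells 3 of 49 members were called (6.12%, against 4.62% of all tested probes), and against femoral cells 6 of 49 were called (12.2%, against 10.9% of all tested probes). The share of members called was thus near that of all probes in both comparisons. Depots of a fetus are paired, but these fits did not use the pairing. With the fetus as a fixed block, 6 members were called against abdominal cells (12.2%, against 9.62% of all probes). Against femoral cells that block called 9 (18.4%, against 15.6% of all probes). Both comparisons use the same omental arrays and are not independent of each other. Between abdominal and femoral cells no member was called by limma (0.0768% of all probes), whether lower (0.0532%) or higher (0.0236%), and 1 member had an unadjusted p under 0.05 (4.18% of all probes).

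As a group the members lay slightly below 0 in both omental comparisons. The median member differed by -0.06 between omental and abdominal cells, where the median over all tested probes was 0.00, and 37 of 49 members were below 0 (49.5% of all probes). It differed by -0.06 between omental and femoral cells as well, with 32 of 49 members below 0 (48.7% of all probes). The lowest member difference was -1.45 (SLC2A1) against abdominal cells and -1.34 (SLC7A4) against femoral cells, while the highest was 0.30 and 0.26, in both comparisons that of SLC38A2. Members called lower were 3 against abdominal cells (2.13% of all probes were called lower) and 6 against femoral cells (5.60% of all probes), and 0 were called higher (2.49% and 5.33% of all probes). At an unadjusted p under 0.05, 12 members differed between omental and abdominal cells (17.2% of all probes) and 11 between omental and femoral cells (22.1% of all probes). No member had separate omental and abdominal arrays (0.738% of all probes).

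**Figure D1:**
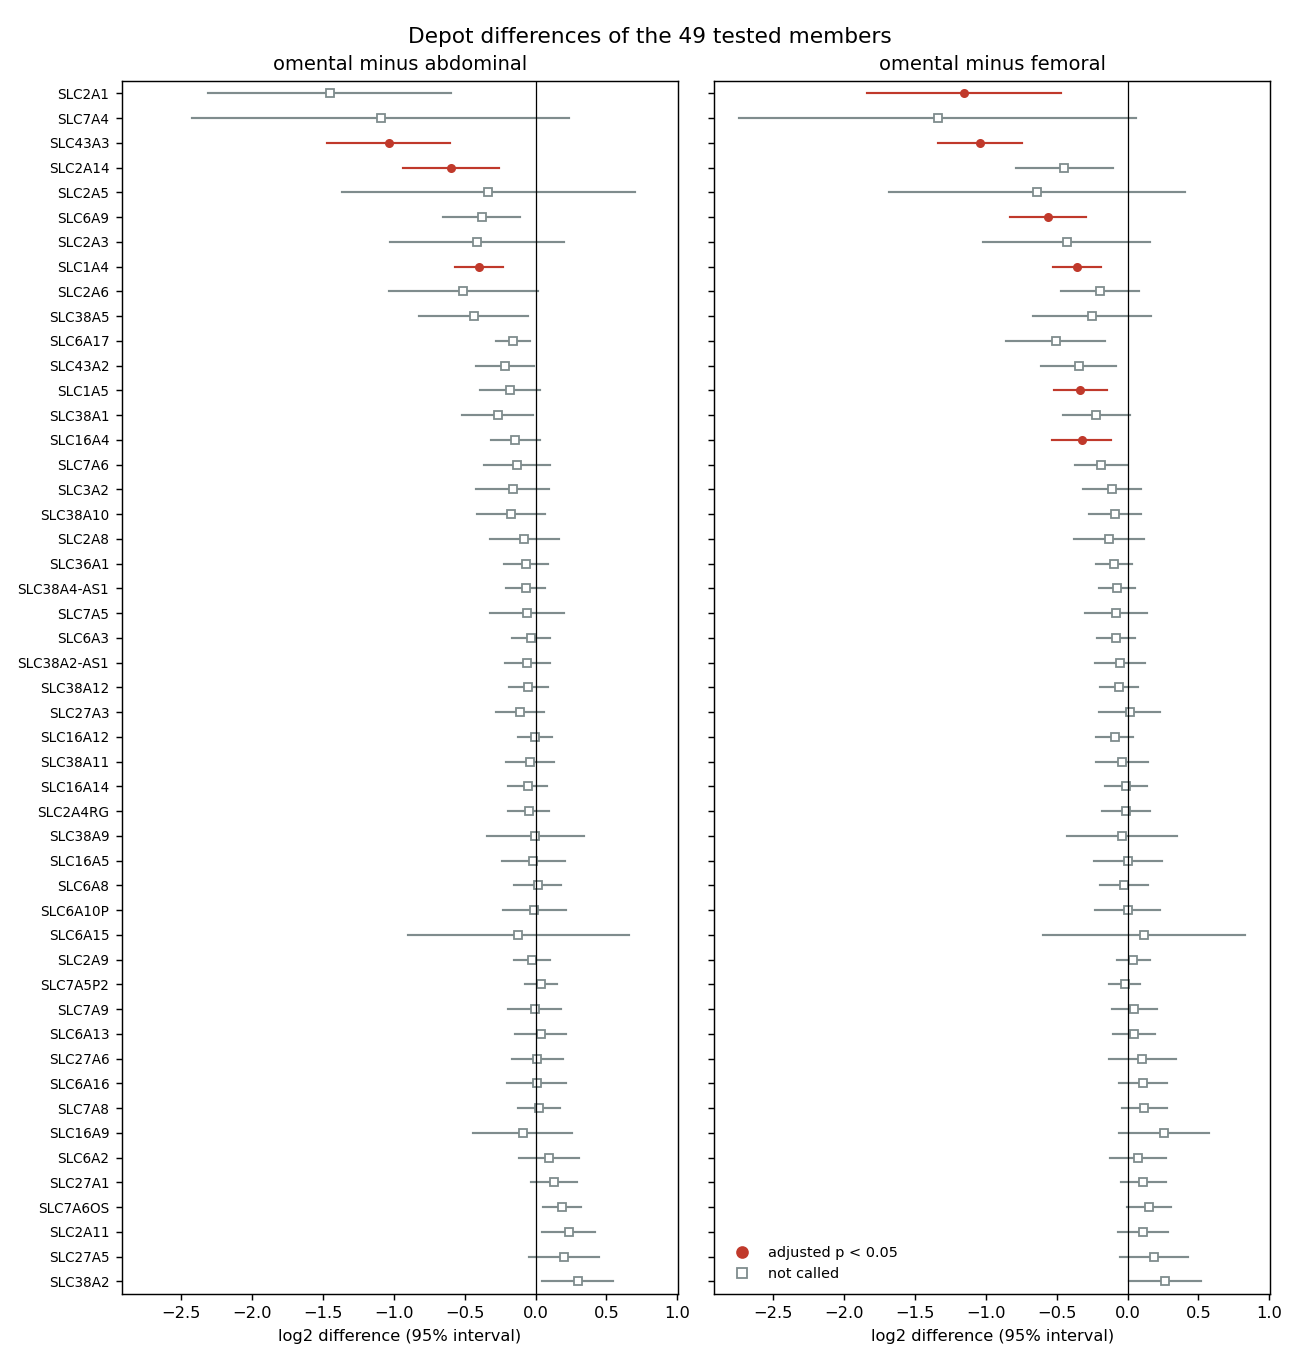
Differences of the 49 tested members between omental and abdominal cells (left) and between omental and femoral cells (right), on the log2 scale with 95% intervals. Filled circles mark members called at an adjusted p under 0.05 and open squares the others, and the rows are sorted by the mean of both differences. The called members, 3 on the left and 6 on the right, all lie below 0.

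Among the hexose carriers, SLC2A1 showed the widest depot difference. Its level was 6.79 at the lowest, 7.85 at the median and 9.74 at the highest in the 8 omental arrays, against 8.32, 9.63 and 10.72 in the abdominal arrays. Femoral arrays ran between 8.67 and 9.98 with a median of 9.09. The depots overlap because the omental arrays of fetuses restricted_2820 (9.74) and control_8011 (8.82) reached the subcutaneous ranges, but within each of the 8 fetuses the omental level was the lowest of the 3 depots. The difference from abdominal cells was -1.45 ± 0.41 (SE, 2.74-fold lower, adjusted p = 0.0517) and was not called. It passed when the fetus entered as a block (-1.45 ± 0.21, adjusted p = 0.00213), without fetus restricted_2820 (-1.60, adjusted p = 0.0239) and without the abdominal array of fetus restricted_9073 (-1.59, adjusted p = 0.0290).

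Against femoral cells SLC2A1 was called at -1.15 ± 0.32 (SE, 2.23-fold lower, adjusted p = 0.0280), with the omental array lower in 8 of 8 fetuses. With the fetus as a block the adjusted p was 0.00110. The call was lost without fetus restricted_9085 (-1.14, adjusted p = 0.0739), restricted_9073 (-1.13, 0.0705), control_9017 (-1.11, 0.0789), control_9087 (-1.11, 0.0786) or control_8009 (-1.02, 0.0740). It was also lost with no filter on detection (adjusted p = 0.0939) and with the authors' normalized values (-1.22, 0.0616). The size of the difference moved little while the adjusted p crossed the threshold.

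SLC2A14 encodes a hexose carrier that arose as a duplicate of SLC2A3, and the labels do not say whether its probe tells them apart in baboon, so both are uncertain. SLC2A14 ran between 5.93 and 7.36 in omental arrays (median 6.36), against 6.62 to 7.80 in abdominal arrays (median 7.10) and 6.54 to 7.84 in femoral arrays (median 6.77). Its omental level was lower than the abdominal one in 7 of 8 fetuses and lower than the femoral one in 8 of 8. The difference was -0.60 ± 0.16 from abdominal cells (1.51-fold lower, adjusted p = 0.0437) and -0.45 ± 0.16 from femoral cells (adjusted p = 0.0990). With the fetus as a block both passed (adjusted p = 0.0225 and 0.00177), and the femoral difference also passed without fetus restricted_2820 (-0.44, adjusted p = 0.0174). The abdominal call was lost with no filter on detection (adjusted p = 0.126), with the authors' normalized values (-0.71, 0.0770) and without any 1 of the fetuses restricted_9085 (-0.49, adjusted p = 0.149), restricted_9075 (-0.64, 0.0730), control_9017 (-0.54, 0.132), control_9087 (-0.63, 0.0838), control_8011 (-0.59, 0.0874) or control_8009 (-0.58, 0.111).

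SLC2A3, a carrier with high affinity for glucose, had omental levels of 5.47 to 7.28 (median 6.74), against 5.51 to 7.85 in abdominal arrays (median 7.08) and 5.55 to 7.76 in femoral arrays (median 7.19). The groups overlapped almost fully because fetus restricted_9075 was low in all depots. The difference was -0.41 ± 0.29 from abdominal cells and -0.43 ± 0.28 from femoral cells, neither of them called. The femoral difference passed with the fetus as a block (adjusted p = 0.0137) and without fetus restricted_9075 (-0.48, adjusted p = 0.0241).

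The remaining hexose carriers were not called between depots. SLC2A5, the fructose carrier, differed by -0.33 ± 0.49 from abdominal and by -0.64 ± 0.49 from femoral cells, with wide intervals because of 1 fetus described further on. SLC2A8, found mainly in membranes inside the cell, had differences of -0.08 and -0.13. SLC2A6 was detected on 0 of 8 omental, 3 of 8 abdominal and 1 of 8 femoral arrays, so it passed the filter on detection through the subcutaneous arrays. Its abdominal level was at least 1.13-fold higher than a just detectable omental one. That level includes fetus restricted_2820, whose mean over depots was 5.61, where the other fetuses had at most 4.87. In this fetus 2 arrays lay above all arrays of the others. SLC2A11 was higher in omental cells than in abdominal cells in 7 of 8 fetuses (0.24 ± 0.09, adjusted p = 0.163).

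**Figure D2:**
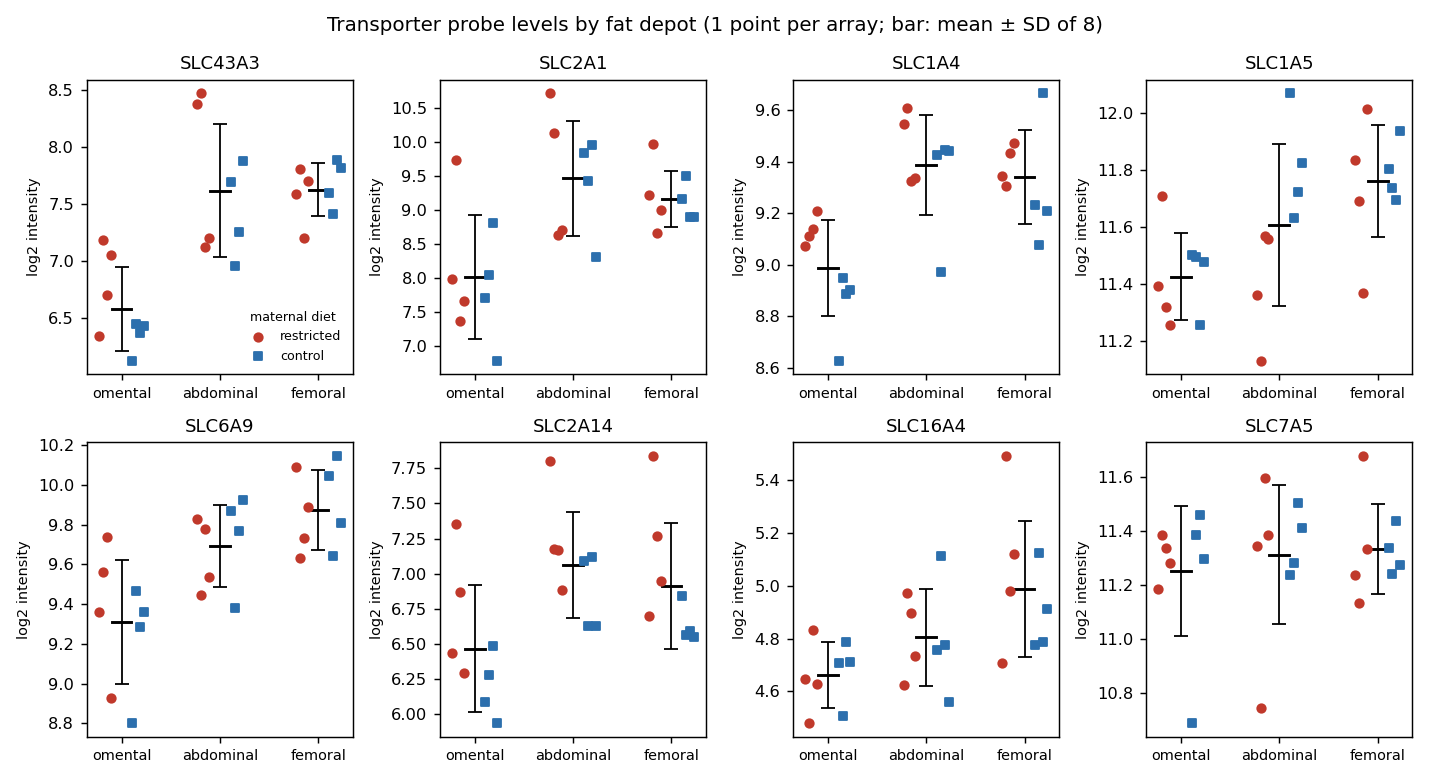
Normalized log2 intensity of 8 members by depot, with omental arrays left of abdominal and femoral arrays and restricted arrays (red circles) left of control arrays (blue squares). Each point is 1 array and the black bars are the mean and SD of 8 arrays. SLC43A3 is separated between omental (6.13 to 7.19) and femoral (7.20 to 7.89) arrays, whereas SLC7A5 covers a similar range in the 3 depots.

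SLC43A3 carries purine nucleobases and belongs to a family whose other members carry large neutral amino acids. Read by its brightest probe, SLC43A3 had the smallest p of the members in both omental comparisons. Its level ran between 6.13 and 7.19 in omental arrays (median 6.45), against 6.96 to 8.47 in abdominal arrays (median 7.48) and 7.20 to 7.89 in femoral arrays (median 7.65). Omental and femoral arrays did not overlap, which no other member showed and which held for 2.40% of all probes. The omental level was lower in 8 of 8 fetuses in both comparisons. The difference was -1.04 ± 0.21 from abdominal cells (2.05-fold lower, adjusted p = 0.00859) and -1.04 ± 0.14 from femoral cells (2.06-fold lower, adjusted p = 9.42e-05).

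The calls of SLC43A3 held under the alternatives that keep its probe, including every left-out fetus. A dimmer second probe of the gene, annotated to another transcript record and detected on 22 arrays, differed by 0.01 ± 0.10 from abdominal and 0.02 ± 0.08 from femoral cells, and 2 more probes were detected on no array. The depot difference was thus seen with the brightest probe and not with the second one. SLC43A2, a carrier of large neutral amino acids, ran between 4.59 and 5.19 in omental arrays, against 4.65 to 5.38 in abdominal and 4.48 to 5.49 in femoral arrays. It differed by -0.21 ± 0.10 and -0.35 ± 0.12 (adjusted p = 0.270 and 0.0950) and was not called, while the femoral difference passed without fetus restricted_9075 (-0.43, adjusted p = 0.0174).

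Both tested members of the SLC1A family were lower in omental than in femoral cells. SLC1A4, which exchanges alanine, serine, cysteine and threonine, ran between 8.63 and 9.21 in omental arrays (median 9.01), against 8.97 to 9.61 in abdominal arrays (median 9.44) and 9.08 to 9.67 in femoral arrays (median 9.33). Omental arrays overlapped only the lower end of the others, and the omental level was the lowest in 8 of 8 fetuses. The difference was -0.40 ± 0.08 from abdominal cells (1.32-fold lower, adjusted p = 0.00912) and -0.36 ± 0.08 from femoral cells (1.28-fold lower, adjusted p = 0.00744). Both calls held in every setting run.

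SLC1A5, the main glutamine carrier of many growing cells, ran between 11.26 and 11.71 in omental arrays (median 11.44), against 11.13 to 12.07 in abdominal arrays (median 11.60) and 11.37 to 12.02 in femoral arrays (median 11.77). It was lower in omental than in femoral cells in 7 of 8 fetuses (-0.34 ± 0.09, 1.26-fold lower, adjusted p = 0.0210). Without any 1 of fetuses restricted_9085 (-0.32, adjusted p = 0.0673), restricted_9073 (-0.27, 0.0795), control_9017 (-0.34, 0.0501), control_8011 (-0.32, 0.0566) or control_8009 (-0.32, 0.0678) it was not called. The difference from abdominal cells was -0.18 ± 0.10 (adjusted p = 0.389), and it was called without fetus restricted_2820 (-0.29, adjusted p = 0.0484).

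Of the 9 tested SLC6A members, 1 was called. SLC6A9, a glycine carrier, ran between 8.80 and 9.74 in omental arrays (median 9.36), against 9.38 to 9.93 in abdominal arrays (median 9.77) and 9.63 to 10.15 in femoral arrays (median 9.85). It was lower in omental than in femoral cells in 7 of 8 fetuses (-0.56 ± 0.13, 1.48-fold lower, adjusted p = 0.00741), a call that every left-out fetus kept. Against abdominal cells the difference was -0.38 ± 0.13 (adjusted p = 0.117, lower in 6 of 8 fetuses). SLC6A17, a carrier of neutral amino acids into synaptic vesicles in neurons, was detected on 0 of 8 omental, 1 of 8 abdominal and 5 of 8 femoral arrays. Its femoral level was at least 1.10-fold higher than a just detectable omental one. It passed the filter on detection through the femoral arrays. It was not called against femoral cells (adjusted p = 0.0598), and it was called with the fetus as a block (adjusted p = 0.0205), without fetus restricted_2820 (0.0239) and without fetus restricted_9085 (0.0497). SLC6A8, which carries creatine, and SLC6A13, which carries GABA and taurine, differed by at most 0.04 in size in either omental comparison.

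The exchanger SLC7A5 and its heavy chain SLC3A2 showed no called depot difference. SLC7A5 ran between 10.69 and 11.46 in omental arrays (median 11.32), against 10.74 to 11.60 in abdominal arrays (median 11.36) and 11.13 to 11.68 in femoral arrays (median 11.30). Its difference was -0.06 from abdominal cells (95% interval -0.32 to 0.20) and -0.08 from femoral cells (-0.30 to 0.13). SLC3A2 ran between 8.64 and 9.28 in omental arrays, against 8.38 to 9.41 in abdominal and 8.56 to 9.41 in femoral arrays, with differences of -0.16 (-0.42 to 0.10) and -0.11 (-0.32 to 0.09). The intervals still hold decreases of 0.32 to 0.42 in omental against abdominal cells, so the data do not show that the depots are alike.

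SLC7A4, a relative of the cationic amino acid carriers whose own transport is not established, had the widest range of all members, from 4.50 to 9.72. Its omental levels ran between 4.59 and 8.70 (median 6.83), against 5.08 to 9.55 in abdominal arrays (median 8.02) and 4.50 to 9.72 in femoral arrays (median 8.67). The omental level was lower than the abdominal one in 8 of 8 fetuses and lower than the femoral one in 7 of 8, while the fetuses differed widely. The difference was -1.09 ± 0.63 from abdominal and -1.34 ± 0.66 from femoral cells, neither called (adjusted p = 0.420 and 0.251). With the fetus as a block the standard errors were 0.20 and 0.25 and both passed (adjusted p = 0.00665 and 0.00293). SLC7A6, SLC7A8 and SLC7A9, other light chains, lay between -0.19 and 0.12 and were not called.

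SLC7A6OS, an opposite-strand neighbour of SLC7A6 and no carrier, was higher in omental than in abdominal cells in 8 of 8 fetuses (0.19 ± 0.06, adjusted p = 0.110), and this passed with the fetus as a block (adjusted p = 0.0256). The pseudogene probes SLC7A5P2 and SLC6A10P could share signal with SLC7A5 and SLC6A8, and they moved by at most 0.04 in size. With the fetus as a block 6 members were called against abdominal cells, where 3 were called without it, and 9 against femoral cells, where 6 were called without it. These are 12.2% and 18.4% of the members, and the same fits called 9.62% and 15.6% of all probes. In a fit of all 24 arrays with the fetus as a random block, 7 members (14.3%, against 10.2% of all probes) and 9 members (18.4%, against 14.4% of all probes) were called.

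SLC38A2, the sodium-driven carrier that cells raise when amino acids run short, had the highest omental difference of the 49 members in both comparisons. It ran between 8.65 and 9.58 in omental arrays (median 9.18), against 8.59 to 9.15 in abdominal arrays (median 8.80) and 8.57 to 9.16 in femoral arrays (median 8.92). The omental level was higher in 7 of 8 fetuses in both comparisons, though the ranges overlapped. The difference was 0.30 ± 0.12 from abdominal cells (adjusted p = 0.188) and 0.26 ± 0.12 from femoral cells (adjusted p = 0.204), neither called. With the fetus as a random block the abdominal difference was called (0.30, adjusted p = 0.0480), and with the fetus as a fixed block it was not (adjusted p = 0.0539).

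Other SLC38A members pointed the other way or lay near 0. SLC38A1, also a sodium-driven carrier of glutamine and alanine, differed by -0.27 ± 0.12 from abdominal and -0.22 ± 0.11 from femoral cells (adjusted p = 0.256 and 0.259). SLC38A5, which carries glutamine, histidine and serine, was lower in omental than in abdominal cells in 8 of 8 fetuses (-0.44 ± 0.18, adjusted p = 0.219). SLC38A9, the arginine sensor on lysosomes that signals to mTORC1, differed by at most 0.04 in size. SLC36A1, a proton-coupled amino acid carrier of lysosomes, was detected on 8 arrays and differed by -0.07 and -0.10.

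In the SLC16A family, SLC16A4, a carrier related to the lactate carriers with a less certain substrate, was called against femoral cells. Its level was close to the detection limit: it ran between 4.48 and 4.83 in omental arrays (detected on 1 of 8), against 4.56 to 5.12 in abdominal arrays (4 of 8) and 4.71 to 5.49 in femoral arrays (6 of 8). The omental level was lower than the femoral one in 8 of 8 fetuses, and the difference was -0.33 ± 0.10 (1.25-fold lower, adjusted p = 0.0428). The call was lost with the fetus as a block (adjusted p = 0.0604), with no filter on detection (0.101), with the authors' normalized values (-0.17, 0.450) and without fetus restricted_2820 (-0.23, adjusted p = 0.0801), restricted_9075 (-0.35, 0.0555), restricted_9073 (-0.30, 0.127), control_9017 (-0.36, 0.0521), control_9087 (-0.28, 0.140) or control_8009 (-0.34, 0.0822). SLC16A9, a carrier of carnitine and creatine, was the member with an unadjusted p under 0.05 between abdominal and femoral cells, where it differed by 0.35 ± 0.16 (higher in abdominal cells in 7 of 8 fetuses). The lactate carriers SLC16A1 and SLC16A3 were not analysed here.

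The 4 tested fatty acid carriers showed no called depot difference. SLC27A1, which serves fatty acid uptake in muscle and fat, was detected on 5 arrays and differed by 0.13 ± 0.08 and 0.11 ± 0.07. SLC27A5, best known as a liver enzyme that activates bile acids, was higher in omental cells in 7 of 8 fetuses in both comparisons (0.20 ± 0.12 and 0.19 ± 0.11, adjusted p = 0.421 and 0.375). SLC27A3 and SLC27A6 lay between -0.11 and 0.10.

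Maternal diet gave no called member in any depot. By limma 0 of 49 members were called in omental, abdominal or femoral cells, where 0 of all probes were called as well (0%), and 0 were called on the fetus means over the 3 depots (0.00591% of all probes). Members with an unadjusted p under 0.05 numbered 4 in omental cells (4.75% of all probes), 2 in abdominal cells (4.87%), 3 in femoral cells (6.20%) and 2 on the fetus means (6.21%). Members whose restricted and control arrays did not overlap numbered 2, 2, 1 and 0 in the same order (2.82%, 3.14%, 3.89% and 3.59% of all probes). Members below 0 numbered 23, 28, 22 and 21 (52.3%, 52.0%, 50.8% and 51.9% of all probes). With 4 fetuses per diet the unadjusted 95% interval of a typical member reached 0.27 to 0.31 to either side within a depot. Differences smaller than that could not be resolved, and larger ones could also go uncalled after adjustment over all probes. In omental cells SLC6A15 differed by 1.19 ± 0.47 and was not called (limma, adjusted p = 0.981).

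**Figure D3:**
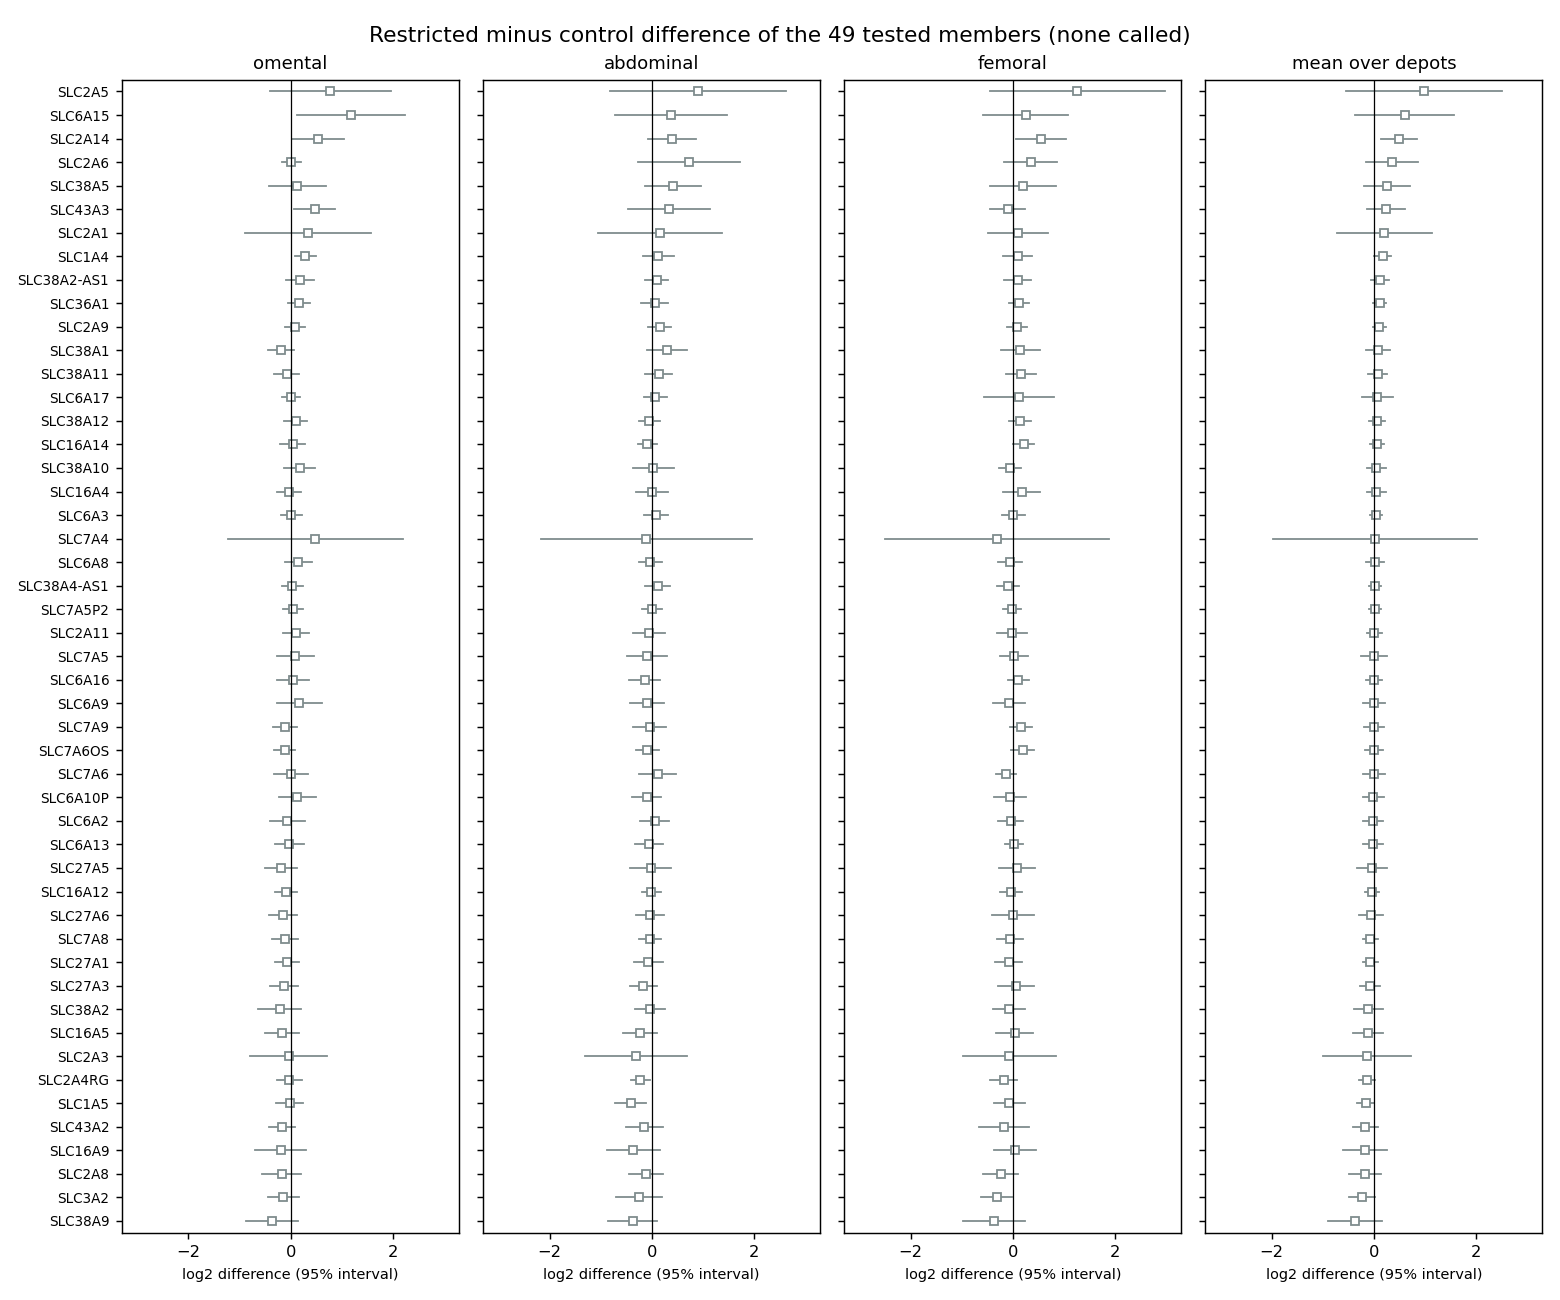
Restricted minus control differences of the 49 tested members on the log2 scale with 95% intervals, in omental, abdominal and femoral cells and on fetus means over the 3 depots, 4 restricted against 4 control fetuses in each panel. Members are sorted by the difference of the fetus means, from SLC2A5 (0.98) at the top to SLC38A9 (-0.37) at the bottom. No member was called, and on the fetus means the widest intervals belong to SLC7A4, SLC2A5 and SLC6A15.

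SLC2A14 was the member with the smallest p on the fetus means. Restricted fetuses had omental levels of 6.44, 7.36, 6.87 and 6.29, against 6.08, 6.28, 6.48 and 5.93 in control fetuses. In femoral cells the restricted fetuses had 6.70, 7.84, 7.27 and 6.95, against 6.84, 6.56, 6.59 and 6.54 in the control fetuses. Most restricted arrays lay above the control arrays, with overlap in each depot. The difference was 0.54 ± 0.23 in omental, 0.39 ± 0.21 in abdominal and 0.56 ± 0.22 in femoral cells, and 0.50 ± 0.15 on the fetus means (adjusted p = 0.783), so it did not pass the correction. Without fetus restricted_2820 the fetus means differed by 0.37 ± 0.12.

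SLC1A4 had omental levels of 9.07, 9.11, 9.14 and 9.21 in restricted fetuses, against 8.63, 8.95, 8.89 and 8.90 in control fetuses. All restricted omental arrays lay above all control omental arrays, and the difference was 0.29 ± 0.09 (adjusted p = 0.981). In abdominal and femoral cells the diets overlapped, and the fetus means differed by 0.17 ± 0.07 (adjusted p = 0.804).

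SLC1A5 ran the other way in abdominal cells, where restricted fetuses had 11.36, 11.13, 11.57 and 11.56, against 12.07, 11.63, 11.72 and 11.82 in control fetuses. Each restricted abdominal array lay below each control one, with a difference of -0.41 ± 0.13 (adjusted p = 0.955). In omental cells the diets differed by -0.01. SLC2A4RG, a transcription regulator of the SLC2A4 gene rather than a carrier, also had separate diets in abdominal cells (6.08, 6.01, 6.15 and 6.01 in restricted fetuses, against 6.18, 6.38, 6.29 and 6.31 in control fetuses) and differed by -0.22 ± 0.08 (adjusted p = 0.955).

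For SLC43A3 in omental cells, restricted fetuses had 6.34, 7.19, 6.71 and 7.05, against 6.13, 6.45, 6.38 and 6.44 in control fetuses, a difference of 0.47 ± 0.18 (adjusted p = 0.981) that the second probe did not show (-0.11). SLC38A1 differed by -0.19 in omental and by 0.30 in abdominal cells. In femoral cells SLC7A6OS differed by 0.20 ± 0.10. The member with no overlap there, SLC16A14, was detected on 2 of 4 restricted and 0 of 4 control arrays, so no size is given. SLC38A9 differed by -0.38 in abdominal cells, where fetuses restricted_9085 and restricted_9075 of the restricted group were low.

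None of the 4 marker carriers was called by diet. SLC2A1 differed by 0.35 ± 0.55 in omental, 0.17 ± 0.53 in abdominal and 0.10 ± 0.26 in femoral cells, and by 0.20 ± 0.41 on the fetus means. These signs depended on single fetuses: without fetus restricted_2820 the differences were -0.17, -0.03, -0.16 and -0.12, and the omental, abdominal and fetus-mean differences were also below 0 without fetus control_8009 (-0.0034, -0.19 and -0.06), as was the abdominal one without fetus restricted_9085 (-0.22). SLC3A2 differed by -0.14 ± 0.13, -0.25 ± 0.20 and -0.31 ± 0.14 in the 3 depots and by -0.23 ± 0.11 on the fetus means (adjusted p = 0.815). SLC7A5 differed by 0.01 on the fetus means (95% interval -0.25 to 0.26), a sign that changed with median scaling (-0.09) and with several left-out fetuses, and SLC38A2 by -0.11 (-0.39 to 0.18).

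Whether the diet acted differently by depot was tested as an interaction, the diet difference in 1 depot minus that in another. No member was called in any of the 3 interactions by limma, and no probe was (0% of all probes). Members with an unadjusted p under 0.05 numbered 2 for omental against abdominal cells (1.95% of all probes), 2 for omental against femoral cells (2.32%) and 1 for abdominal against femoral cells (1.90%). Those with an unadjusted p under 0.05 were SLC38A1 (-0.49 ± 0.21) and SLC1A5 (0.39 ± 0.18) in the first, SLC7A6OS (-0.32 ± 0.13) and SLC43A3 (0.58 ± 0.25) in the second and SLC16A14 in the third, which was not above background on any restricted abdominal or control femoral array and is given no size. Members below 0 numbered 22, 24 and 25 in the same order of interactions (50.0%, 50.9% and 50.9% of all probes). SLC1A4, although separate by diet in omental cells, is not shown to respond differently between depots.

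For 41 of the 49 members more of the variation lay between fetuses than between depots (83.7%, against 86.0% of all probes). Diet differs between fetuses and is part of that share. The members named here were singled out after their values were seen, so they are described without a test. Over the 49 members the median share of the variation over 24 arrays that lay between fetuses was 40.0%, and that between depots 10.1%, close to the medians over all probes (41.7% and 9.12%). The share between fetuses was above 80% for 3 members (6.12%, against 5.42% of all probes): SLC38A9 (93.9%), SLC2A5 (84.6%) and SLC6A15 (80.9%). For SLC2A1 it was 40.0%, against 44.0% between depots, and for SLC43A3 17.4%, against 61.0%.

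**Figure D4:**
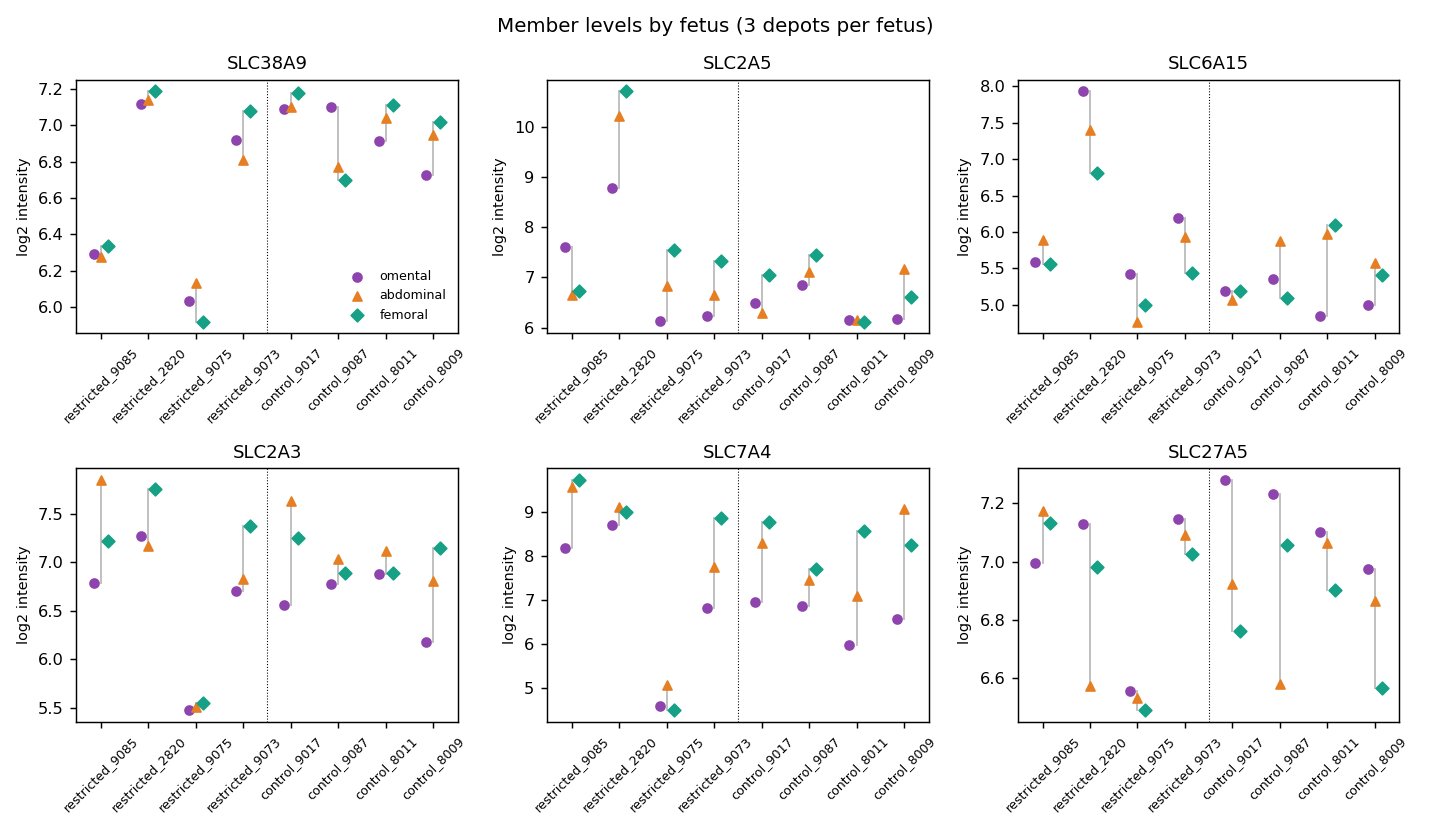
Normalized log2 intensity of 6 members by fetus, restricted fetuses left of the dotted line and control fetuses right of it, with omental (circles), abdominal (triangles) and femoral (diamonds) arrays of each fetus joined by a line. Fetus restricted_2820 is the highest in all 3 depots for SLC2A5 and SLC6A15, and fetus restricted_9075 the lowest in all 3 depots for SLC2A3, SLC7A4, SLC27A5 and SLC38A9.

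Fetus restricted_2820 of the restricted group held the highest levels of SLC2A5, with 8.79 in omental, 10.22 in abdominal and 10.71 in femoral cells. The other 7 fetuses reached at most 7.61, 7.17 and 7.54 in these depots. SLC6A15, a carrier of branched-chain amino acids and proline best known from brain, was also highest in fetus restricted_2820, at 7.93, 7.40 and 6.81, and the other fetuses reached at most 6.19, 5.97 and 6.10. The restricted minus control differences of both were smaller when this fetus was left out, for SLC2A5 on the fetus means 0.22 ± 0.21, against 0.98 with it, and for SLC6A15 in omental cells 0.64 ± 0.20, against 1.19 ± 0.47 with it. The omental SLC6A15 difference did not rest on this fetus alone, since every restricted omental array lay above every control one, though it was not called (adjusted p = 0.981). CD14, a marker of monocytes and macrophages, was likewise highest in fetus restricted_2820 in all depots (7.84, 9.87 and 8.70, where the others reached at most 6.55, 7.72 and 7.07). PTPRC, CSF1R and CD163 were detected on 0 arrays. The other listed markers, CD68 and LYZ, were detected on 24 and 21 arrays, and their levels by fetus are not given here. The arrays of fetus restricted_2820 also had the lowest mean raw intensity of their depot (148 in omental, 150 in abdominal and 161 in femoral cells) and the lowest median correlation with the other arrays of their depot (0.979, 0.970 and 0.979). The part of such cells, or of these array differences, in these levels was not tested.

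Fetus restricted_9075, also of the restricted group, held the lowest levels of 4 members in all 3 depots. SLC7A4 was 4.59 in its omental, 5.08 in its abdominal and 4.50 in its femoral cells, where the other fetuses had at least 5.97, 7.08 and 7.71. SLC2A3 was 5.47, 5.51 and 5.55, where the others had at least 6.18, 6.80 and 6.88. SLC38A9 was 6.03, 6.13 and 5.92 in fetus restricted_9075 and 6.29, 6.28 and 6.33 in fetus restricted_9085, while the other 6 fetuses lay between 6.70 and 7.19. Without fetus restricted_9075 the SLC7A4 difference between omental and femoral cells was -1.54 ± 0.27 and was called (adjusted p = 0.00179).

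Genes that work beside the carriers were read from lists. For each list, the share of all tested probes called was 4.62% between omental and abdominal cells and 10.9% between omental and femoral cells. For glucose use and lactate, 7 of 9 listed genes were tested and 1 was called in each omental comparison: LDHA, which makes lactate from pyruvate, ran between 4.82 and 5.76 in omental arrays, against 5.36 to 6.09 in abdominal and 5.30 to 6.13 in femoral arrays. It was lower in omental cells by -0.45 ± 0.12 (adjusted p = 0.0359) and -0.41 ± 0.11 (adjusted p = 0.0170). HK1, which traps glucose in the cell (0.16 and 0.30), and BSG, the partner of lactate carriers (-0.16 and -0.12), were not called. For insulin-driven uptake, 5 of 6 genes were tested, none was called against abdominal cells, and IRS1, an adaptor of the insulin receptor, was lower in omental than in femoral cells (-0.66 ± 0.15, adjusted p = 0.00595).

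Among the genes of the amino acid response and synthesis, 11 of 13 were tested, none was called against abdominal cells, and 1, the stress-induced factor ATF3, was higher in omental than in femoral cells (0.65 ± 0.17, adjusted p = 0.0177). ATF4, the factor that drives this response, differed by 0.04 and 0.03, and its target ASNS, asparagine synthetase, by -0.13 and -0.16. Of the mTORC1 list 9 of 12 genes were tested and 1 was called against femoral cells, where 10.9% of all probes were called. It was TSC2, an inhibitor of the pathway, which was lower in omental cells (-0.30 ± 0.07, adjusted p = 0.0113). GOT2, a mitochondrial aminotransferase, was the 1 of 3 tested genes of glutamine and glutamate use that was called (0.37 ± 0.09 against femoral cells, adjusted p = 0.00988).

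In the fatty acid list 6 of 10 genes were tested. CD36 was higher in omental cells in both comparisons and was detected on 7 of 8 omental, 1 of 8 abdominal and 0 of 8 femoral arrays. Its omental levels ran between 4.41 and 8.53 (median 6.74), against 4.38 to 5.39 in abdominal arrays (median 4.46), and it was called (adjusted p = 0.0162). It passed the filter on detection through the omental arrays, and because 7 of 8 abdominal arrays were not above background no size is given for that difference. Against femoral cells, where it was not detected, it was at least 3.33-fold higher (adjusted p = 0.00347). ACSL5, which activates fatty acids, was lower in omental than in femoral cells (-0.99 ± 0.29, adjusted p = 0.0381). In the growth list 4 of 6 genes were tested and none was called, with TOP2A at -0.59 ± 0.27 and -0.33 ± 0.25. By diet, no gene of any of these lists was called in any depot.

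Markers of the cell types were read on the same arrays. The progenitor markers PDGFRA, PDGFRB, NT5E, DCN and COL1A1 were detected on all 24 arrays, while THY1 and DLK1 were detected on none and ADIPOQ, a marker of mature fat cells, on 2. Mesothelial markers mark the lining of the abdominal cavity that covers the omentum, and 4 of 8 listed were tested. None was called against abdominal cells, and 3 were called higher in omental than in femoral cells (5.33% of all probes). CALB2 was 8.14 ± 1.08 in omental and 5.15 ± 0.80 in femoral arrays (SD, n = 8 each), and KRT19 differed by 1.75 ± 0.31. LRRN4 was detected on 6 of 8 omental, 1 of 8 abdominal and 0 of 8 femoral arrays and was at least 1.45-fold higher than in femoral cells. It passed the filter on detection through the omental arrays. The remaining tested marker, UPK3B, differed by -0.05 from abdominal and -0.07 from femoral cells and was not called. MSLN, KRT8, KRT18 and ITLN1 were detected on 0 arrays. The summed intensity of the 8 ran between 366 and 1124 in restricted and 575 and 896 in control omental arrays, against 302 to 499 in restricted and 210 to 278 in control abdominal arrays and 194 to 283 in restricted and 180 to 213 in control femoral arrays. Among abdominal arrays KRT19 was highest in fetus restricted_2820 (8.22) and CALB2 in fetus restricted_9075 (8.04). Fetus restricted_9073, whose abdominal array detected CD36, had 7.05 and 6.87 there, and the highest abdominal LRRN4 (4.76).

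Other cell type markers also moved with depot. TEK, an endothelial receptor, was lower in omental cells by -2.04 ± 0.21 against abdominal and by -2.38 ± 0.16 against femoral cells, while PECAM1, VWF and KDR were not called and CDH5 was detected on 0 arrays. PDGFRB was lower (-0.72 ± 0.11) and DES, an intermediate filament of muscle, higher (1.09 ± 0.24) in omental than in femoral cells. Neither was called against abdominal cells. The other tested progenitor markers, PDGFRA (-0.04), NT5E (0.13), ENG (0.00), DCN (-0.29) and COL1A1 (-0.05), were not called against femoral cells. The muscle genes ACTC1 (0.28) and MYF5 (0.00) were not called there either. Pericyte, epithelial, neural and macrophage lists had no called gene in either omental comparison. The part of cell composition in the depot differences of the carriers was not tested.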

How the data were processed

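Total RNA was labelled with biotin and hybridised to Illumina bead arrays with human probes, per the labels' protocols. The deposited scanner table holds an intensity per probe and array, background subtracted and not normalized, and a detection p-value. The deposited series matrix holds intensity values that the authors had normalized, with the method not given in the sources used here. Its columns have the same rank order as the scanner columns, which also tied the scanner columns' depot letters to the samples.

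Intensities were background-modelled from the detection p-values, given an offset of 16, quantile normalized and put on the log2 scale with limma 3.58.1 (R 4.3.3). Probe symbols came from GEO's platform annotation: 28098 probes had 1 symbol, 13 had several and 20692 none. A gene was read by its brightest single-symbol probe. Differences were fitted with lmFit and eBayes over 16933 probes detected on at least 4 arrays: diet within a depot (8 arrays) or on fetus means, and depots over 16 arrays with diet as a term. Benjamini-Hochberg adjustment covered all tested probes, and the fit was tested on simulated data. Named members were the 4 marker carriers, all called members, the 5 (diet, interaction) or 8 (depot) with the smallest p and members at the filter's edge. Where no array of a group detected a probe, the fold is a bound against the lowest detected signal of each array. The 4 fetuses per diet limit the precision. Replicates are separate fetuses, and depots of a fetus are paired: deviations of arrays of the same fetus from their group means correlated at 0.280 to 0.673. Alternatives were other filters, scalings, the series matrix values, sex as a term, the fetus as a block, other probes and each fetus left out. The members and lists were chosen with earlier results of these data known.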

Additional observations from a re-analysis of the deposited data

Results flagged for a closer look

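Among 60 groups of 4 arrays examined, 10 members in 6 groups each, 3 held 1 array far from the others by Dixon's criterion, and chance alone gives about 1 in 20. SLC1A4 was 8.97 in the abdominal cells of fetus control_9087, while the other control fetuses had 9.43 to 9.45. SLC2A14 was 6.84 in the femoral cells of fetus control_9017, while the other control fetuses had 6.54 to 6.59. SLC1A5 was 11.26 in the omental cells of fetus control_8011, while the other control fetuses had 11.48 to 11.50.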

How the results depend on the processing

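Between omental and abdominal cells, 3 members were called without the fetus as a block, 6 with the fetus as a fixed block, 7 in a fit of all 24 arrays with the fetus as a random block, 2 to 5 when a fetus was left out (5 without fetus restricted_2820), and 2 to 4 under the other settings. Between omental and femoral cells, 6 were called, 9 with either block, 3 to 8 when a fetus was left out (3 without fetus restricted_9073, control_9017 or control_8009) and 4 to 7 under the other settings. Over all probes the fixed block called 1629 against abdominal and 2645 against femoral cells, where 782 and 1852 were called without it. The all-probe count against abdominal cells ran between 346 (without fetus control_8009) and 1726 (random block) over the settings, with 394 for no filter on detection, 498 for the authors' normalized values and 421, 431, 467, 493 and 527 without fetuses restricted_9085, control_9087, control_8011, control_9017 and restricted_9075. The diet comparisons, the abdominal against femoral comparison and the interactions had 0 called members in every setting run. Over 83 results of single members (called members, those with the smallest p in a comparison, and the 4 marker carriers by depot and by diet) there were 1342 alternative values, of which 1267 kept direction and side of the threshold, 29 lost a call, 18 gained one and 28 changed sign. Of the sign changes, 7 were those of SLC43A3 with its second probe (diet in omental cells -0.11, omental against abdominal cells 0.0056, omental against femoral cells 0.020, interaction of omental against femoral cells -0.15), SLC7A5 between omental and abdominal cells without fetus control_9017 (0.0087, where leaving out 1 fetus gave -0.16 to 0.0087) and between abdominal and femoral cells without fetus restricted_2820 (0.032, with a range of -0.043 to 0.032), and SLC3A2 between abdominal and femoral cells without the abdominal array of fetus restricted_9073 (-0.0039). The other 21 were of diet differences that were never called. With median scaling SLC7A5 differed by -0.039 in omental and -0.019 in femoral cells and by -0.086 on the fetus means. Leaving out 1 fetus gave SLC2A1 -0.17 to 0.67 in omental, -0.22 to 0.47 in abdominal and -0.16 to 0.28 in femoral cells and -0.12 to 0.46 on the fetus means, SLC7A5 -0.082 to 0.17, -0.20 to 0.086, -0.089 to 0.093 and -0.070 to 0.081 in the same order, and SLC38A2 -0.15 to 0.042 in abdominal and -0.18 to 0.019 in femoral cells. The cause was not tested. The fixed fetus block changed no other call than those given with the results. The random block also called SLC6A9 (-0.38, adjusted p = 0.0346) and SLC38A2 (0.30, 0.0480) against abdominal cells and SLC43A2 (-0.35, 0.0447) against femoral cells. A slide block was not run, because the file headers name no slides. Members near the detection limit, such as SLC16A4 and SLC6A17, are limited by signal over background.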
